A study of Mus musculus with 6 samples.

Results

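The genes described here encode hydrolases, membrane proteins and the proton pump of the lysosome. Their transcripts were measured in dendritic cells grown from mouse bone marrow. They were chosen by name. A gene was taken if its symbol begins with Atp6v or Atp6ap, the subunits and accessory proteins of the vacuolar proton pump, or if it was on a list of 27 lysosomal genes. Of that list, 23 had a probe in the authors' log2 table, and Npc1, Sgsh, Cd68 and Tfeb were not analysed here. With 18 pump genes this gave 41 genes of the 7989 with a named probe in that table. Where a gene had several probes, the one with the highest average intensity stood for it, and all 41 were among the 7896 genes tested.

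The marrow came from a Rag2 knockout mouse aged 6 weeks, labelled C57BL/10NAGCSnAi-(KO) Rag2, and was cultured for 6 d with 1.5 ng/ml GM-CSF and 1.5 ng/ml IL-4. All 3 groups carry the knockout, so the mice lacked mature T and B cells. In the ROS group, reactive oxygen species were made inside the cells: the cells took up hematoporphyrin, a light-sensitive porphyrin, from 1 µg/ml over 1 h, were lit for 3 min by a diode emitting from 450 to 600 nm with a peak at 515 nm (3.1 mW per square cm) and were kept for 18 h. The LPS group received lipopolysaccharide, a bacterial cell wall component sensed by Toll-like receptor 4, at 1 µg/ml for 18 h. The unstimulated group received neither stimulus; the labels do not say whether these cells met hematoporphyrin or light, or how long they were kept after the 6 d. Each group has 2 samples, each hybridised to 1 Illumina array. Nothing in the labels says that the samples came from separate mice or cultures, so the p-values rest on a spread between samples that may be technical.

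Lysosomes digest material taken up from outside and worn-out parts of the cell. Their hydrolases work in an acidic interior that is kept acidic by the vacuolar ATPase, a rotary pump whose V1 sector splits ATP in the cytosol and whose V0 sector moves protons across the membrane. Many lysosomal genes share a promoter element with the core CACGTG, bound by TFEB, TFE3 and MITF, and dendritic cells are known to adjust the acidity and protease content of these compartments when they mature and present antigen.

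The promoters of 6 members are shown because they carry that core in different numbers or, for Ids, not at all, and because these genes include the largest changes described below. Each sequence is the 250 bases before the annotated RefSeq start on build GRCm38.p6, read 5′ to 3′ on the strand of the gene, with every CACGTG in capitals. The Lamp1 stretch lies at chr8:13158911-13159160 on the plus strand and the Mcoln1 stretch at chr8:3500269-3500518 on the plus strand. The Gla stretch lies at chrX:134601006-134601255 on the minus strand, where it overlaps the annotated gene Hnrnph2. The Naglu stretch lies at chr11:101069844-101070093 on the plus strand. The Atp6v0b stretch lies at chr4:117887330-117887579 on the minus strand, where it overlaps the annotated gene Gm12841, and the Ids stretch at chrX:70365086-70365335 on the minus strand.
Lamp1: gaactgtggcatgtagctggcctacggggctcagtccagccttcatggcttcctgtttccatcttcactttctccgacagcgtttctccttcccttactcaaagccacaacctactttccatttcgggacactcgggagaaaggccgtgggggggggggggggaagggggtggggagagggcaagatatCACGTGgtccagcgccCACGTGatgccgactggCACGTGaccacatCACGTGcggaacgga
Gla: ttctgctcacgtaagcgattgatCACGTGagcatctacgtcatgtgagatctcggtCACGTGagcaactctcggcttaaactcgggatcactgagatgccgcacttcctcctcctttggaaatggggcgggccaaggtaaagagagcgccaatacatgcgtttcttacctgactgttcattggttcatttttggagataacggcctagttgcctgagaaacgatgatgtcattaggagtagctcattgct
Mcoln1: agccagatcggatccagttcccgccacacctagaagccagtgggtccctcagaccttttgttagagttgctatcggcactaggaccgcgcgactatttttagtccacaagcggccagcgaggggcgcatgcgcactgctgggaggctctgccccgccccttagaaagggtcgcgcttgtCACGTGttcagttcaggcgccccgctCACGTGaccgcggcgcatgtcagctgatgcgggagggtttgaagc
Naglu: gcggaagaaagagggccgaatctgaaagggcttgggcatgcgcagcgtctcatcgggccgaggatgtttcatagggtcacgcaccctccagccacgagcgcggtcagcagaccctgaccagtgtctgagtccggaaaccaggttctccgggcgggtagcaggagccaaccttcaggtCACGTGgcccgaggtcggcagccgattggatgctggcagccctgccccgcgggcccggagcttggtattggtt
Atp6v0b: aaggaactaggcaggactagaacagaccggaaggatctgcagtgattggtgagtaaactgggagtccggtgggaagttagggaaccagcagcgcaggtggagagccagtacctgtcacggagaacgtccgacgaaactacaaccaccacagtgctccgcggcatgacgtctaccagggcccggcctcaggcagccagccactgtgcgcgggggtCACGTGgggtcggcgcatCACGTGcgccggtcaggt
Ids: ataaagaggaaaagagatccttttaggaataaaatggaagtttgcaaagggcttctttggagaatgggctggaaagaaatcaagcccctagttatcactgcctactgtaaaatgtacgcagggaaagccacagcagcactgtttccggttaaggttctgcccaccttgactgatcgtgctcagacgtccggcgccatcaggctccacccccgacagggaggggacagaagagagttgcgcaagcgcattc
Lamp1 holds 4 copies of the core, starting 61, 45, 28 and 15 bases upstream of the start. Gla holds 2, at 227 and 194 bases upstream, both within TCACGTGA. Mcoln1 holds 2, at 71 and 45 bases upstream. Atp6v0b holds 2, at 36 and 18 bases upstream, and Naglu holds 1, at 73 bases upstream.

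Windows from 250 bases before to 50 bases after the start were given by RefSeq for 34 of the 41 members. The core CACGTG, which reads the same on both strands, was found in 10 of these 34 windows (29.4%), against 12.1% of the 6584 genes with both a probe in the authors' table and a window and 8.09% of all 27025 genes with a window. TCACGTGA, which contains the core, was found in 5 windows (14.7%), against 2.28% and 1.12%. The longer form with a further G before and C after it was found in 0 of the 34, against 0.805% and 0.37%. These matches describe letters in a window and say nothing of whether a factor binds there.

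All 41 members had an intensity above background on at least 5 arrays, and 39 of them on all 6. The exceptions were Atp6v0e2, dim on 1 LPS array, and Atp6v1c2, dim on 1 unstimulated array. The mean raw signal of an array was 626 to 643 in the ROS group, 529 to 545 in the LPS group and 704 to 765 in the unstimulated group. Probes above background numbered 11251 to 11438 in ROS, 10428 to 10485 in LPS and 11267 to 11356 in unstimulated arrays. The 2 arrays of a group correlated at r = 0.992 (ROS), 0.988 (LPS) and 0.993 (unstimulated) across probes, and arrays of different groups reached at most 0.939. Values below are log2 intensities after background correction and quantile normalisation, which gives every array the same distribution, and differences are log2 fold changes with their standard errors. The LPS arrays had the lowest raw signal, so their calls depend on this scaling. When arrays were aligned by their medians only, the median change over all genes in LPS against unstimulated cells was -0.515, with 868 genes higher and 4179 lower; with no scaling it was -0.753, with 615 higher and 5182 lower. For ROS against unstimulated cells these medians were -0.0387 and -0.143, with 1363 higher and 1736 lower genes after median scaling and 1021 and 2087 with none. For LPS against ROS they were -0.454, with 1112 higher and 3925 lower, and -0.589, with 926 and 4383.

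Among markers of the labelled cell type, 8 of 10 dendritic cell genes were in the table, without Flt3 and Cd209a. Those 8 were above background on both ROS arrays and both unstimulated arrays; Itgax, which encodes CD11c, reached that level on 1 LPS array of 2. The cultures also held transcripts that mark macrophages, granulocyte precursors and mast cells or basophils. None of 6 T and B cell markers was in the table.

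In cells exposed to ROS, lysosomal hydrolases were lower than in unstimulated cells, while most of the proton pump did not change by the test. Of the 15 hydrolases and cofactors measured, 11 fell and none rose, with a median change of -0.62. With the authors' log2 values 11 of the 15 fell and 1, Ids, rose. Of the 18 pump genes, 3 fell, 1 rose and 14 did not pass the test, with a median of -0.04. Naglu, Lamp2, Hexa and Lipa fell most, to between 0.338 and 0.422 of their unstimulated intensity. The rank of Naglu depended on the processing. With the authors' log2 values it was called at -0.72, a smaller fall than Lamp2 (-1.24), Hexa (-1.19) and Lipa (-1.04). Over all members 17 fell and 1 rose at an adjusted p under 0.05 (limma, Benjamini-Hochberg over all kept probes), where 18% of all genes tested were called lower and 21.8% higher. The median change was -0.26 over the members and 0.05 over all genes.

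Naglu, which removes N-acetylglucosamine from heparan sulphate, had log2 intensities of 6.11 and 5.96 on the ROS arrays, against 7.48 and 7.72 on the unstimulated arrays. It fell by 1.57 ± 0.15 (adjusted p = 0.000791). The groups stood well apart, with the lower unstimulated array above both ROS arrays. Hexa, the alpha chain of beta-hexosaminidase, which degrades GM2 ganglioside, measured 10.55 and 10.43 in ROS cells, against 11.52 and 11.97 in unstimulated cells. Its change was -1.26 ± 0.17 (adjusted p = 0.00281). Lipa, the acid lipase that frees cholesterol from its esters, measured 9.03 and 8.54 in ROS cells, against 9.99 and 10.07 in unstimulated cells, a change of -1.25 ± 0.21 (adjusted p = 0.0065). Here the ROS arrays differed between themselves by more than the unstimulated ones, and the groups still did not overlap.

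The glycosidases and peptidases followed. Man2b1, the lysosomal alpha-mannosidase, measured 12.25 and 12.16 in ROS cells, against 13.36 and 13.12 in unstimulated cells (-1.04 ± 0.13, adjusted p = 0.0022). Gaa, the acid alpha-glucosidase that breaks down glycogen, measured 8.58 and 8.13 against 9.29 and 9.56 (-1.07 ± 0.19, adjusted p = 0.00725). Tpp1, a peptidase that removes tripeptides, measured 7.74 and 7.67 in ROS cells, against 9.07 and 8.62 in unstimulated cells (-1.13 ± 0.26, adjusted p = 0.0184). In all 3 genes every ROS array lay below every unstimulated array. Without the second unstimulated array the adjusted p of Gaa was 0.0519, and that of Tpp1 was 0.106 without the first unstimulated array and 0.0779 or 0.0883 without the first or the second ROS array.

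Smaller falls were seen in Gla (alpha-galactosidase A, -0.90), Asah1 (acid ceramidase, -0.62), Neu1 (sialidase, -0.55), Glb1 (beta-galactosidase, -0.55) and Galns (a sulphatase of keratan and chondroitin sulphate, -0.40). Galns was dim, with a mean signal of 33 units above background. The 4 hydrolases and cofactors that did not pass the test were Psap, the precursor of the saposins, at -0.35, Ppt1, which removes palmitate from proteins, at -0.26, Gusb, the beta-glucuronidase, at 0.21, and Ids, an iduronate sulphatase, at 0.45. Ids measured 11.05 and 11.39 on the ROS arrays, against 10.81 and 10.72 on the unstimulated ones (adjusted p = 0.0539), the highest change among the hydrolases in this comparison. With the authors' log2 values Ids was called higher, at 0.43 (adjusted p = 0.00834), and Psap lower, at -0.35 (0.00863). Psap and Ppt1 were called lower with no scaling, at -0.47 and -0.49. With no background correction or an offset of 50, among other settings, 1 listed lysosomal member was also called higher.

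Among the 7 membrane proteins and lipid transporters, 2 fell and none rose. Lamp2, a heavily glycosylated protein of the lysosomal membrane needed for chaperone-mediated autophagy and for fusion with autophagosomes, measured 11.87 and 12.13 in ROS cells, against 13.23 and 13.31 in unstimulated cells. It fell by 1.27 ± 0.13 (adjusted p = 0.00106). Its paralogue Lamp1 measured 14.01 and 14.03, against 14.18 and 14.24, a change of -0.19 ± 0.11 that did not pass the test (adjusted p = 0.208) and passed it after median scaling, at -0.48, and with no scaling, at -0.58. Lamp1 also passed with trend and robust eBayes, another setting of the same fit, at -0.19 (adjusted p = 0.026). Thus Lamp2 differed between the groups far beyond the spread of its arrays, while the call on Lamp1 depended on the processing. Mcoln1, the calcium channel of the lysosomal membrane, measured 6.04 and 6.46 in ROS cells, against 6.93 and 6.76 in unstimulated cells, and fell by 0.59 ± 0.17 (adjusted p = 0.0396). With the authors' log2 values it was at -0.24 and not called (adjusted p = 0.0515), and the call was also lost when some single arrays were left out. Scarb2, the sorting receptor of glucocerebrosidase, was at -0.74 ± 0.27 (adjusted p = 0.0776). It was called lower after median scaling, at -0.87 (adjusted p = 0.0379), with no scaling, at -0.97 (0.0239), and with the authors' log2 values, at -0.53 (0.0206), and under either of those scalings 4 of the 7 fell.

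Npc2, which hands cholesterol to the membrane transporter, was at -0.21 ± 0.21 (adjusted p = 0.472). Laptm5, a lysosomal protein of blood cells, measured 14.59 and 14.54 in ROS cells, against 14.83 and 14.56 in unstimulated cells, at -0.13 ± 0.15 (adjusted p = 0.533). Cd63, a tetraspanin of late endosomes, measured 12.76 and 12.90, against 12.64 and 12.76, at 0.13 ± 0.12 (adjusted p = 0.412). The groups touched or overlapped in both. Grn, which encodes progranulin, a secreted protein cut into granulins in the lysosome, measured 12.03 and 12.26 in ROS cells, against 13.26 and 13.01 in unstimulated cells, and fell by 0.99 ± 0.14 (adjusted p = 0.00364).

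Among the pump genes chosen by name, with 1 probe for each, the members called in ROS cells were V1 subunits. Tcirg1, a V0 subunit outside that choice, and 3 further probes of Atp6ap2 were also called lower and are described below. Atp6v1c1, a stalk subunit that takes part in joining V1 to V0, measured 9.61 and 9.52 in ROS cells, against 10.33 and 10.27 in unstimulated cells (-0.73 ± 0.12, adjusted p = 0.00482). Atp6v1b2, the non-catalytic B subunit, fell by 0.66 and Atp6v1g1, a subunit of the outer stalks, by 0.63. None of the 6 V0 subunits among the members changed by the test, and their values ran from -0.14 to 0.22; at an unadjusted p under 0.05 none of them passed either. The remaining V1 subunits that did not pass ran from -0.37 (Atp6v1a, the catalytic subunit) to 0.29 (Atp6v1c2). The 1 member that rose was Atp6v1g2, the paralogue of Atp6v1g1 known mainly from brain. It measured 8.37 and 8.46 in ROS cells, against 6.94 and 6.86 in unstimulated cells, a change of 1.51 ± 0.12 (adjusted p = 0.000467). Its annotated gene overlaps Nfkbil1 in RefSeq, and the position of the probe was not used here, so its value is given as uncertain.

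**Figure D1:**
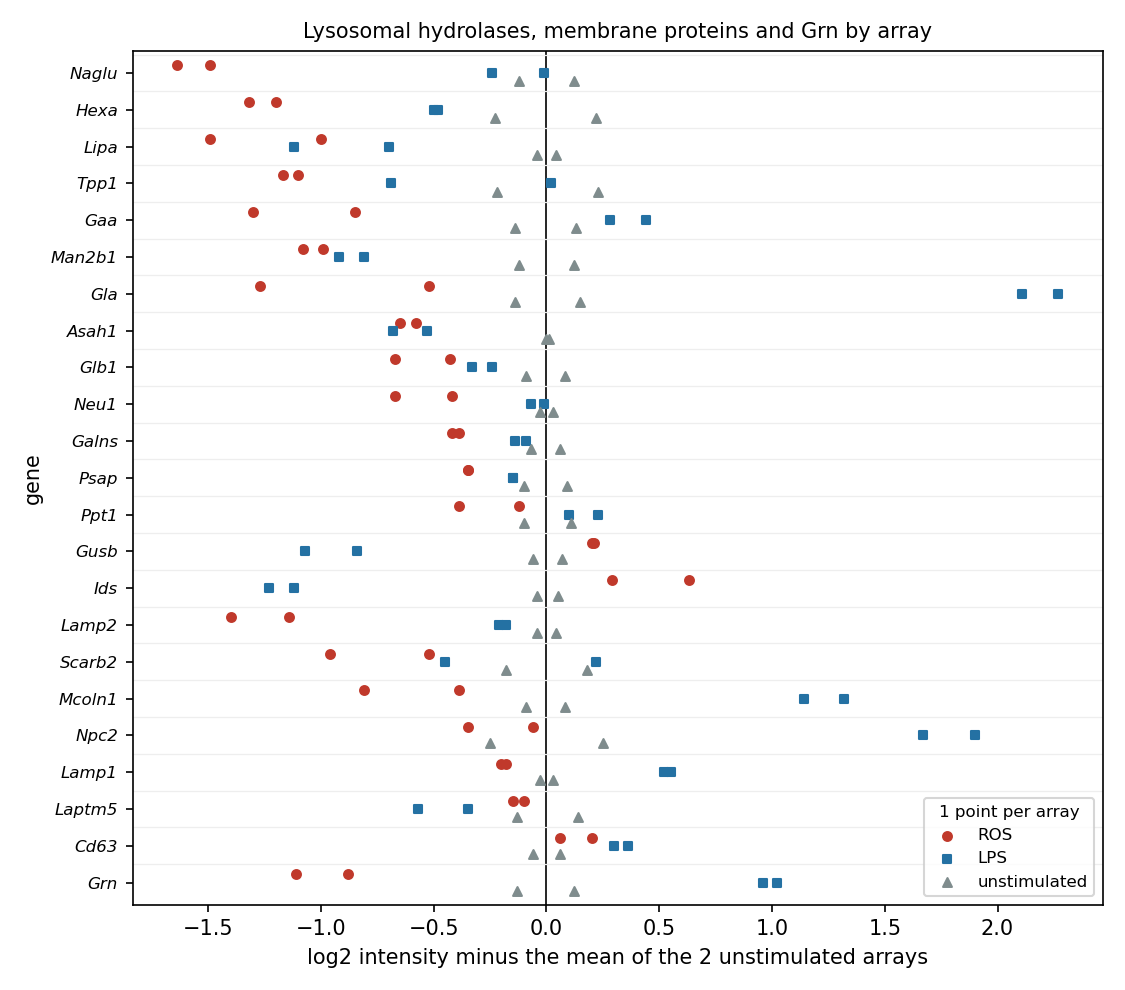
Log2 intensity of each lysosomal member on each array, minus the mean of the 2 unstimulated arrays; circles are ROS arrays, squares LPS arrays and triangles unstimulated arrays. For Naglu, Hexa and Lamp2 both ROS arrays lie below all other arrays, whereas for Gla, Mcoln1, Npc2 and Grn both LPS arrays lie above all others.

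The falls did not hinge on the scaling. All 17 members that fell and the 1 that rose were also called after median scaling, where 19 fell, and with no scaling, where 22 fell. They did depend on the number of arrays: 9 members fell without the first unstimulated array and 10 without the second, and 7 fell whichever array was left out (Naglu, Lamp2, Hexa, Lipa, Man2b1, Grn and Atp6v1c1).

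Other changes in the cultures ran alongside. The summed normalised intensity of the 8 macrophage markers was 10360 to 15170 on the ROS arrays, against 29320 to 31440 on the unstimulated arrays; 4 of the 8 fell and none rose, where C1qb fell by 5.67 and Mrc1 fell by 4.12. That of the 8 dendritic cell markers was 41310 to 41650, against 84040 to 94780. Of these, 4 fell, among them H2-Aa (-2.54) and H2-Ab1 (-1.79), and 2 rose, Zbtb46 (0.76) and Batf3 (0.69). The sum of 10 neutrophil and granulocyte precursor markers was 43500 to 47080, against 57560 to 59160, with 5 lower and 3 higher. That of 4 mast cell and basophil markers was 8614 to 8857, against 1897 to 1992, with all 4 higher. These sums are of linear intensity, so bright genes weigh most in them. The part of these marker changes in the lysosomal values was not tested. In such bulk samples fewer cells of a type and less RNA per cell cannot be told apart.

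LPS gave a mixed picture in which named members moved both ways. Gla rose by 2.18 and Npc2 by 1.79, and Mcoln1, Atp6v0b and Grn also rose, while Ids, Atp6v0a1, Gusb, Lipa and Man2b1 fell by 0.87 to 1.18. Over all members 13 rose and 8 fell, where 24.7% of all genes tested were called higher and 29% lower. The median change was 0.08 over the members and -0.05 over all genes. Of the pump genes 8 rose and 2 fell, and of the hydrolases 1 rose and 5 fell. Of the membrane proteins and lipid transporters 3 rose and 1 fell. After median scaling 7 members rose and 16 fell, and with no scaling 4 rose and 22 fell. For the membrane proteins and lipid transporters these splits were 2 and 2, and 1 and 3. For the hydrolases they were 1 and 11, with a median of -0.77, and 1 and 13, with a median of -1.01, where the median under quantile normalisation was -0.28. Gla, Npc2, Grn and Atp6v0b were called higher under all 3 scalings, and all 8 lower calls were also kept. The LPS and ROS comparisons use the same unstimulated arrays.

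Gla measured 8.91 and 8.75 on the LPS arrays, against 6.50 and 6.79 on the unstimulated arrays, a rise of 2.18 ± 0.26 (4.55-fold, adjusted p = 0.000927). It was the only hydrolase called higher. With the authors' log2 values its rise was 1.34, below that of Npc2 at 1.59. Npc2 measured 11.12 and 10.89 in LPS cells, against 9.47 and 8.97 in unstimulated cells (1.79 ± 0.21, adjusted p = 0.000874). Mcoln1 measured 7.99 and 8.17, against 6.93 and 6.76 (1.23 ± 0.17, adjusted p = 0.00198), though with no scaling it was at 0.33 (adjusted p = 0.163). Grn measured 14.10 and 14.16 in LPS cells, against 13.26 and 13.01 in unstimulated cells, and rose by 0.99 ± 0.14 (adjusted p = 0.00216). In these 4 genes both LPS arrays lay above both unstimulated arrays.

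Lamp1 measured 14.76 and 14.73 in LPS cells, against 14.18 and 14.24 in unstimulated cells, and rose by 0.53 ± 0.11 (adjusted p = 0.00731). The rise did not pass the test after median scaling, at 0.22 (adjusted p = 0.168), and with no scaling the value was -0.02. Lamp2 measured 13.09 and 13.06, against 13.23 and 13.31, at -0.20 ± 0.13 (adjusted p = 0.248). With no scaling Lamp2 was called lower, at -0.63 (adjusted p = 0.00737). Cd63 measured 13.06 and 13.00 in LPS cells, against 12.64 and 12.76 in unstimulated cells, at 0.33 ± 0.12 (adjusted p = 0.0575). It was called higher with no background correction (adjusted p = 0.00853), an offset of 50 (0.0335) and the authors' log2 values (0.00997). It was also called at a detection p under 0.01 (0.045) and with trend and robust eBayes (0.00543). After median scaling Cd63 was at 0.16 and with no scaling at -0.08, neither called. Laptm5 measured 14.34 and 14.12, against 14.83 and 14.56, and fell by 0.46 ± 0.15 (adjusted p = 0.0385), a call that was lost without the first unstimulated array (0.184), the second LPS array (0.149) or either ROS array (0.0647).

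Of the hydrolases that fell, Ids measured 9.53 and 9.64 in LPS cells, against 10.81 and 10.72 in unstimulated cells (-1.18 ± 0.15, adjusted p = 0.00122). Gusb measured 11.35 and 11.58, against 12.49 and 12.36 (-0.96 ± 0.13, adjusted p = 0.00159). Both had shown small positive values in ROS cells. Man2b1 measured 12.32 and 12.43 in LPS cells, against 13.36 and 13.12 in unstimulated cells (-0.87 ± 0.13, adjusted p = 0.00256), and Lipa 8.91 and 9.33, against 9.99 and 10.07 (-0.91 ± 0.21, adjusted p = 0.0137). Lipa lost its call when the first LPS array (adjusted p = 0.0506) or either unstimulated array was left out (0.06 and 0.0739). Asah1 fell by 0.60 ± 0.11 (adjusted p = 0.00606). Naglu and Hexa, which fell by 1.57 and 1.26 in ROS cells, were at -0.12 (adjusted p = 0.512) and -0.49 (adjusted p = 0.0531) in LPS cells. That they did not pass depended on the scaling: both were called lower in LPS cells after median scaling, at -0.82 each, and with no scaling, at -1.06 each, and Hexa also with the authors' log2 values, at -0.47 (adjusted p = 0.00875).

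In the pump, LPS cells had more signal for the V0 subunits b and a2 and less for a1. Atp6v0b, a proteolipid of the proton-carrying ring, measured 12.76 and 12.65 in LPS cells, against 11.60 and 11.49 in unstimulated cells (1.16 ± 0.11, adjusted p = 0.000436). The a subunit anchors the pump and its isoforms are known to differ in the compartment they serve. Its isoform Atp6v0a1 measured 11.12 and 10.96 in LPS cells, against 11.95 and 12.13 in unstimulated cells, and fell by 1.00 ± 0.12 (adjusted p = 0.00119). Its isoform Atp6v0a2 measured 10.09 and 10.08, against 9.53 and 9.38, and rose by 0.63 (adjusted p = 0.00835), a rise that was not called under either other scaling.

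Of the V1 subunits 5 rose and Atp6v1b2 fell, with 1 higher and 2 lower after median scaling and 0 and 3 with no scaling. Atp6v1a measured 7.47 and 8.08 in LPS cells, against 6.67 and 7.03 in unstimulated cells (0.93 ± 0.25, adjusted p = 0.0226). Atp6v1h, the regulatory subunit that blocks ATP splitting in free V1, measured 12.31 and 12.27, against 11.43 and 11.77 (0.69 ± 0.15, adjusted p = 0.01). Atp6v1g2 measured 7.95 and 7.76, against 6.94 and 6.86 (0.95 ± 0.12, adjusted p = 0.00138). The LPS arrays lay above the unstimulated arrays in each, but the scaling bore on all 3: after median scaling Atp6v1g2 was at 0.28 and Atp6v1a at 0.26, neither called, and with no scaling Atp6v1h was at 0.24, not called. Leaving out the first unstimulated array ended the call of Atp6v1a (adjusted p = 0.124) and of Atp6v1h (0.0503), and leaving out the second LPS array ended that of Atp6v1a (0.0712).

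Atp6v1d, part of the central rotor, rose by 0.59 and Atp6v1c2 by 0.63, the last from a probe only 32 units above background. Neither rise was called after median scaling (0.36 and 0.28) or with no scaling (0.12 and 0.04). That of Atp6v1c2 was also not called with the authors' log2 values, at 0.22 (adjusted p = 0.0535). Atp6v1b2 measured 12.41 and 12.55 in LPS cells, against 12.92 and 12.78 in unstimulated cells, and fell by 0.37 ± 0.12 (adjusted p = 0.044). That call was lost when any 1 array was left out (adjusted p from 0.0628 to 0.188). Of the 2 accessory proteins, Atp6ap2, the prorenin receptor, rose by 0.66 ± 0.12 (adjusted p = 0.00453) and Atp6ap1 was at -0.03. With no scaling Atp6ap2 was at 0.16 and not called (adjusted p = 0.36), and Atp6ap1 was called lower, at -0.46 (0.0291). Over the pump the split of 8 higher and 2 lower became 3 and 3 after median scaling, and 1 and 6 with no scaling.

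**Figure D2:**
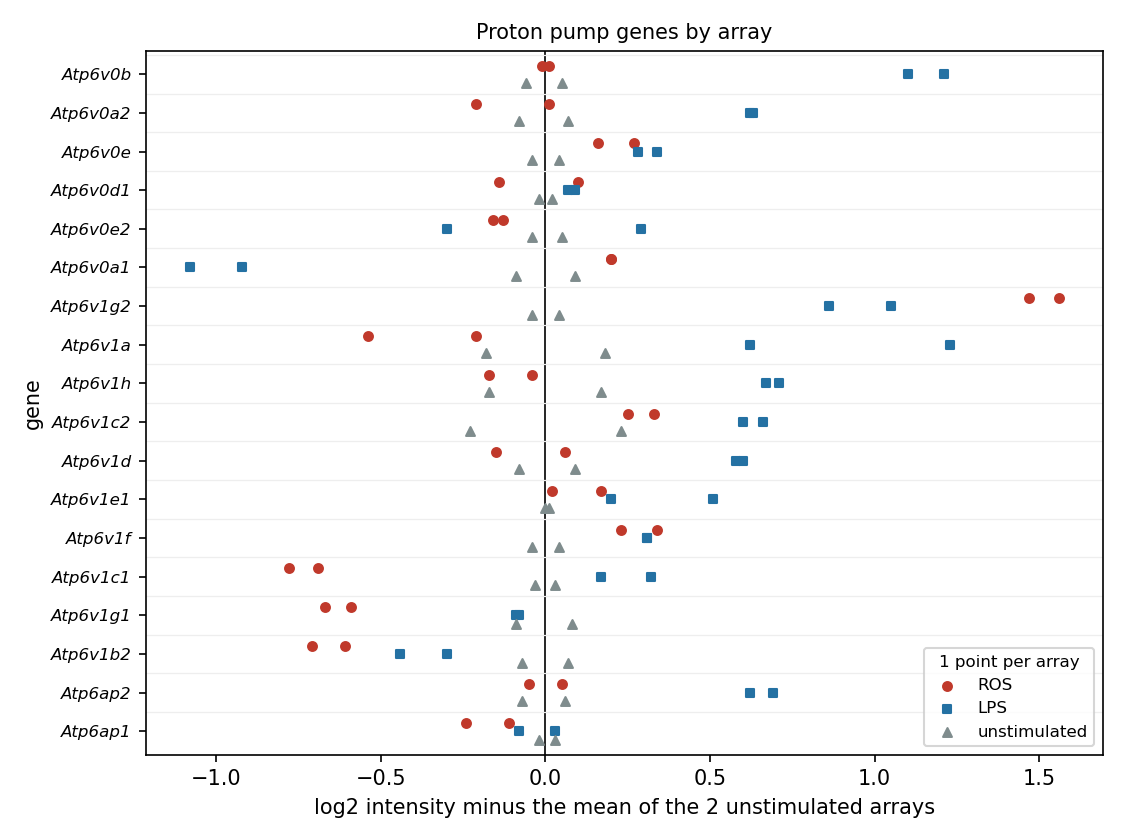
Log2 intensity of each proton pump gene on each array, minus the mean of the 2 unstimulated arrays; circles are ROS arrays, squares LPS arrays and triangles unstimulated arrays. Both LPS arrays of Atp6v0b lie above all others and both of Atp6v0a1 below all others, and both ROS arrays of Atp6v1g2 lie highest.

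The macrophage markers summed to 19530 to 21380 on the LPS arrays, against 29320 to 31440 on the unstimulated arrays, with 3 of 8 higher and 4 lower. The dendritic cell markers summed to 47430 to 52470, against 84040 to 94780, with 6 of 8 lower. The neutrophil and granulocyte precursor markers summed to 19010 to 19350, against 57560 to 59160, with 9 of 10 lower; Ngp, Mpo and Prtn3 were not well above background on either LPS array. The mast cell and basophil markers summed to 12690 to 14530, against 1897 to 1992; this sum was carried by Hdc, which rose by 4.46, while the other 3 fell and Fcer1a was not well above background on either LPS array. Their part in the lysosomal values was not tested.

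Set directly against ROS, 19 of the 41 members were higher in LPS-treated cells and 4 lower at an adjusted p under 0.05, where 24.9% of all genes tested were called higher and 30.9% lower. The median difference was 0.42 over the members (0.06 with no scaling) and -0.08 over all genes. The 19 were 6 hydrolases, 4 membrane proteins and lipid transporters, Grn and 8 pump genes. The 4 were Ids, Gusb, Atp6v0a1 and Atp6v1g2. Of the 19, 15 were also called after median scaling and 13 with no scaling as well, and the 4 lower calls were kept under both, beside 1 more with no scaling.

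Gla had the largest difference, 3.08 ± 0.26 (8.48-fold, adjusted p = 0.000211), with 8.91 and 8.75 in LPS cells, against 6.12 and 5.37 in ROS cells. Its size and rank depended on the processing. With the authors' log2 values Gla was at 1.67, below Grn at 1.95 and Npc2 at 1.76. Npc2 differed by 1.99 ± 0.21 (adjusted p = 0.000491), Grn by 1.98 ± 0.14 (adjusted p = 0.000126) and Mcoln1 by 1.83 ± 0.17 (adjusted p = 0.000359). Gla, Grn and Mcoln1 were the members called lower in ROS and higher in LPS, each against unstimulated cells. Of these falls in ROS cells, that of Grn alone was called whichever array was left out, and that of Mcoln1 was not called with the authors' log2 values. The rise of Mcoln1 in LPS cells was not called with no scaling. Naglu, at 7.36 and 7.59 in LPS cells, against 6.11 and 5.96 in ROS cells, differed by 1.44 ± 0.15 (adjusted p = 0.000475). Gaa, at 9.87 and 9.71, against 8.58 and 8.13, differed by 1.43 ± 0.19 (adjusted p = 0.00138). For Naglu, Gaa and Lamp2 the LPS arrays stood nearer the unstimulated ones than the ROS arrays did.

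Lamp2 was higher in LPS by 1.07 ± 0.13 (adjusted p = 0.000982) and Lamp1 by 0.72 ± 0.11 (adjusted p = 0.00205). Laptm5 was at -0.34 ± 0.15 (adjusted p = 0.0968), and it was called lower in LPS with no scaling (-0.50), with no background correction (-0.33), with the authors' log2 values (-0.34) and with trend and robust eBayes (-0.34). Cd63 was at 0.20 ± 0.12 (adjusted p = 0.204), while another of its probes was at 1.00 (adjusted p = 0.0033) and the mean of all its kept probes at 0.56 (adjusted p = 0.00811). In the pump, Atp6v1a was higher by 1.30 ± 0.25 (adjusted p = 0.00603), Atp6v0b by 1.15 ± 0.11 (adjusted p = 0.000383) and Atp6v1c1 by 0.98. On the other side, Ids was lower by 1.63 on the log2 scale (change -1.63 ± 0.15, adjusted p = 0.000286), with 9.53 and 9.64 in LPS cells, against 11.05 and 11.39 in ROS cells. Atp6v0a1 was at -1.20 ± 0.12 (adjusted p = 0.000495) and Gusb at -1.16 ± 0.13 (adjusted p = 0.000636). Atp6v1g2 was at -0.56 ± 0.12 (adjusted p = 0.0106), a call lost without the second ROS array (adjusted p = 0.0525).

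Asah1 (0.01), Man2b1 (0.17), Atp6v1b2 (0.29) and Lipa (0.33), the members called lower in both treatments, did not pass the test between LPS and ROS. For Asah1 this holds for the probe that represents the gene; its other probe was higher in LPS by 0.75 (adjusted p = 0.0159). The smallest spread of values between the groups was seen in Atp6v0d1, the subunit linking the ring to the rotor, whose 3 differences ran from -0.02 to 0.10.

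**Figure D3:**
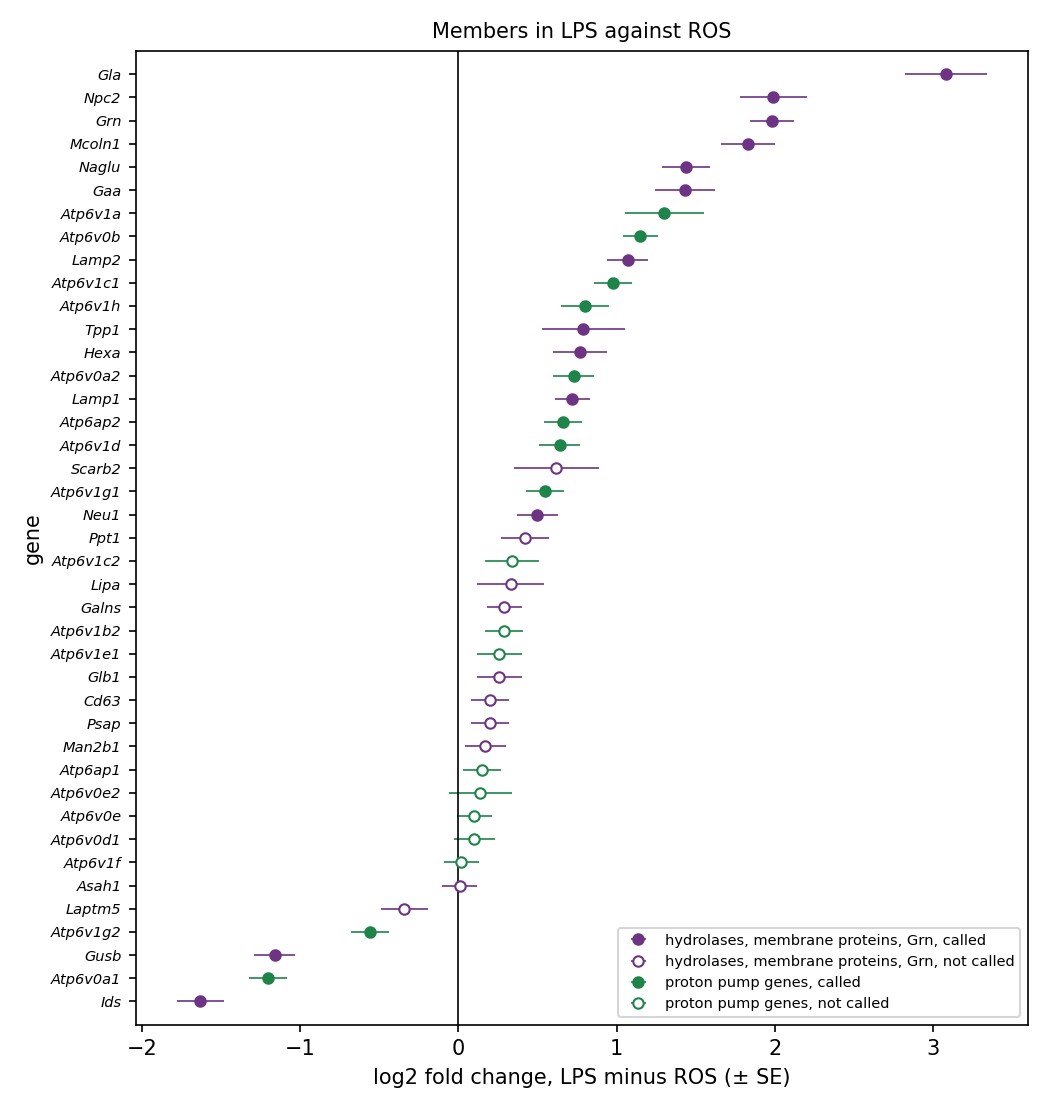
Log2 fold change of each of the 41 members in LPS against ROS cells, with its standard error; filled points passed an adjusted p under 0.05. Gla lies farthest to the right at 3.08 and Ids farthest to the left at -1.63, and 19 filled points lie above 0 and 4 below it.

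Several probes were present for 6 members, and these did not always give the same answer. All 4 probes of Lamp2 were called lower in ROS cells, from -1.38 to -1.03. In LPS cells they ran from -0.20, for the probe that represents the gene, to 0.73, and 2 of the 4 were called higher. For Atp6ap2 the representing probe was at 0.00 in ROS cells, whereas the other 3 were called lower, from -0.68 to -0.45; in LPS cells all 4 were called higher, from 0.57 to 0.92. The ROS value of Atp6ap2 and the LPS value of Lamp2 thus depend on the probe. Gusb was called lower in LPS by 2 of 3 probes, from -0.96 to 0.04. Cd63 was called higher in LPS by 1 of 3 probes, from 0.12 to 0.52. Asah1 was called lower in ROS by both probes and in LPS by 1 of 2. None of the 4 probes of Atp6v0d1 was called in any comparison, and their values ran from -0.22 to 0.19.

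**Figure D4:**
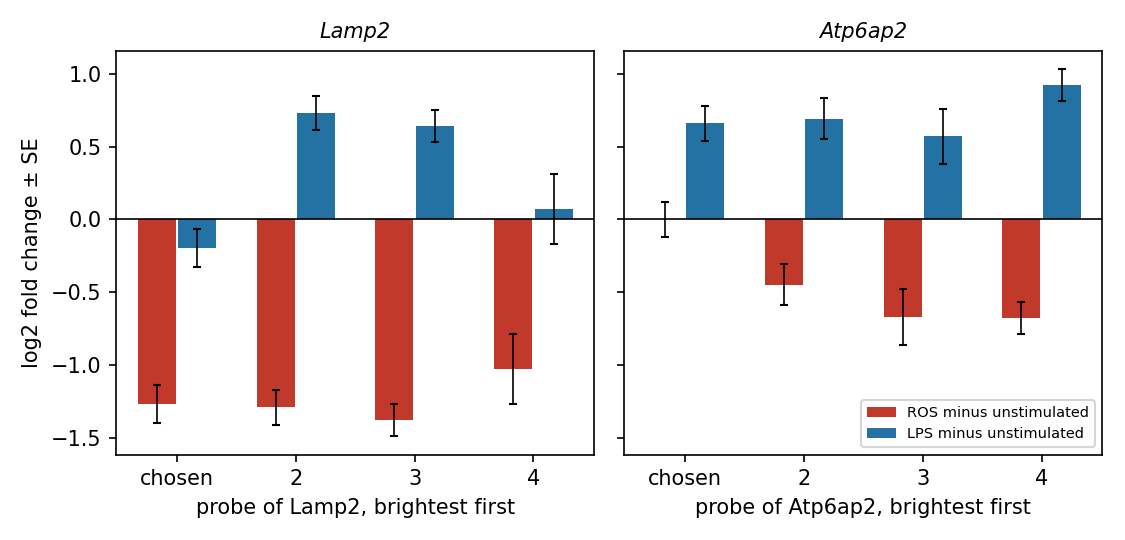
Log2 fold changes with standard errors for each probe of Lamp2 and Atp6ap2, in ROS (red) and in LPS (blue) against unstimulated cells; the probe that represents the gene is drawn first. The Lamp2 bars for ROS lie between -1.38 and -1.03, while the LPS bars run from -0.20 to 0.73, and the ROS bar of the representing Atp6ap2 probe is at 0.00.

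Members with the promoter core moved as follows, given as a description only. Of the 10 members with CACGTG in the window, 5 fell and 0 rose in ROS cells, 5 rose and 0 fell in LPS cells, and 7 were higher and 0 lower in LPS against ROS, with medians of -0.46, 0.45 and 1.23. The LPS split against unstimulated cells rested on the scaling: it was 3 higher and 2 lower after median scaling, where Glb1 and Naglu fell, and 2 and 2 with no scaling. The split of 7 and 0 between LPS and ROS was the same under both. Of the 24 members with a window that lacks it, 7 fell and 1 rose in ROS cells, 6 rose and 6 fell in LPS cells, and 8 were higher and 4 lower in LPS against ROS, with medians of -0.16, -0.04 and 0.30. Their LPS split against unstimulated cells was 3 and 10 after median scaling and 2 and 15 with no scaling. Over all genes tested, 18% were lower and 21.8% higher in ROS cells, and 24.7% higher and 29% lower in LPS cells. In LPS against ROS these shares were 24.9% higher and 30.9% lower. Shares among all genes that carry the core were not computed. In LPS cells Lamp1, with 4 copies, changed less than Gla, with 2, and Npc2 rose with none in its window. Whether the number of copies ordered the changes was not tested. Tfe3, which encodes a factor that binds this core, measured 6.27 and 6.47 in ROS cells, against 7.03 and 7.25 in unstimulated cells, and fell by 0.77 ± 0.14 (adjusted p = 0.00697); in LPS cells it was at 0.10 (adjusted p = 0.565).

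Beyond the members, other lysosomal genes were counted in the same way. Of 20 further hydrolases and activators in the table, 11 fell and 2 rose in ROS cells, with a median of -0.69; the 11 are 55% of the list, beside 18% over all genes. Gm2a, the activator that presents GM2 ganglioside to beta-hexosaminidase, measured 12.75 and 12.74 in ROS cells, against 14.79 and 14.73 in unstimulated cells (-2.02 ± 0.11, adjusted p = 0.00014). Smpdl3a, a phosphodiesterase, fell by 2.01 ± 0.18. Hyal1, a hyaluronidase, was not well above background on either ROS array and was at least 3.09-fold lower than in unstimulated cells (adjusted p = 0.0154). Hyal2 and Arsb rose, by 0.58 and 0.55. After median scaling the ROS split was 1 higher and 13 lower, and with no scaling 0 and 15, so neither rise was called there. In LPS cells 3 of the 20 rose and 8 fell, among them Acp2, the lysosomal acid phosphatase, at 1.50 and Pla2g15, the lysosomal phospholipase, at -1.66. These are 15% and 40% of the list, beside 24.7% higher and 29% lower over all genes. In LPS against ROS 11 were higher and 6 lower (8 and 7 with no scaling). These are 55% and 30%, beside 24.9% and 30.9% over all genes.

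Of 32 further membrane proteins and transporters, 14 fell and 0 rose in ROS cells, with a median of -0.44; the 14 are 43.8% of the list. The calcium-releasing channels Tpcn1 and Tpcn2 fell by 1.89 and 1.07, and Slc29a3, a nucleoside transporter, by 1.00. In LPS cells 11 rose and 6 fell (34.4% and 18.8%), beside 24.7% and 29% over all genes. In LPS against ROS 14 were higher and 3 lower (43.8% and 9.38%), beside 24.9% and 30.9% over all genes. That split was 13 and 8 after median scaling and 11 and 9 with none. Mcoln2, a channel related to Mcoln1, measured 9.78 and 9.47 in LPS cells, against 6.62 and 6.33 in unstimulated cells (3.15 ± 0.21, adjusted p = 9.58e-05). Tpcn1 measured 7.78 and 8.12, against 11.86 and 11.94 (-3.95 ± 0.16, adjusted p = 1.77e-05). Slc11a1, which moves divalent metals out of the phagosome, and Slc15a3, a peptide and histidine transporter, rose by 1.52 and 1.48. Tcirg1 encodes another isoform of the pump's a subunit under a symbol that the name rule did not catch; it was singled out after its values were seen. It measured 10.45 and 10.20 in ROS cells, against 11.31 and 11.33 in unstimulated cells (-0.99 ± 0.13), and 11.97 and 11.90 in LPS cells (0.61 ± 0.13). After median scaling the LPS split was 7 higher and 12 lower for these membrane proteins and 1 and 13 for the further hydrolases; with no scaling it was 4 and 18, and 1 and 15.

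Of 24 genes that sort enzymes to the lysosome, 4 rose and 4 fell in ROS cells (3 and 7 under either other scaling), and 4 rose and 3 fell in LPS cells. These shares, 16.7% each way in ROS cells and 16.7% higher and 12.5% lower in LPS cells, were below those over all genes, which were 21.8% and 18% in ROS and 24.7% and 29% in LPS cells. Sort1, the sorting receptor sortilin, measured 8.29 and 8.21 in LPS cells, against 12.67 and 12.62 in unstimulated cells (-4.39 ± 0.11, adjusted p = 5.31e-06). Igf2r, the large mannose 6-phosphate receptor that carries hydrolases, measured 8.64 and 8.62 in ROS cells, against 10.12 and 10.07 in unstimulated cells, and fell by 1.47 ± 0.11 (adjusted p = 0.000373). In LPS cells it fell by 0.84. After median scaling the LPS split was 1 higher and 13 lower, and with no scaling 0 and 16.

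Of 16 genes of the TFE3 family and of nutrient signalling at the lysosome, 2 rose and 4 fell in ROS cells, and 1 rose and 4 fell in LPS cells, where other scalings gave 0 higher and 11 or 14 lower. The share that fell was 25% in both, beside 18% over all genes in ROS and 29% in LPS cells. Fnip1 and Flcn, partners in that signalling, fell in ROS cells by 0.92 and 0.81. Of 23 autophagy genes 2 rose and 5 fell in ROS cells (1 and 6 after median scaling, 0 and 7 with none), and 8 rose and 2 fell in LPS cells, with 4 and 9 after median scaling and 2 and 15 with no scaling. In ROS cells 21.7% fell, near the 18% over all genes, and in LPS cells 34.8% rose, beside 24.7%. Sqstm1, the cargo receptor p62, measured 14.95 and 15.09 in LPS cells, against 12.78 and 12.58 in unstimulated cells (2.34 ± 0.15, adjusted p = 7.95e-05), and was at -0.05 in ROS cells. Wipi1 fell in both, by 1.60 in ROS and by 1.01 in LPS cells. Of 4 pump partners in the table, 2 rose and 1 fell in ROS cells (1 and 2 under either other scaling), and 1 rose and 3 fell in LPS cells (0 and 3). Over all genes 21.8% rose and 18% fell in ROS cells, and 24.7% rose and 29% fell in LPS cells. Rogdi, which is related to pump assembly factors, rose by 1.15 in ROS cells and fell by 2.09 in LPS cells.

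**Figure D5:**
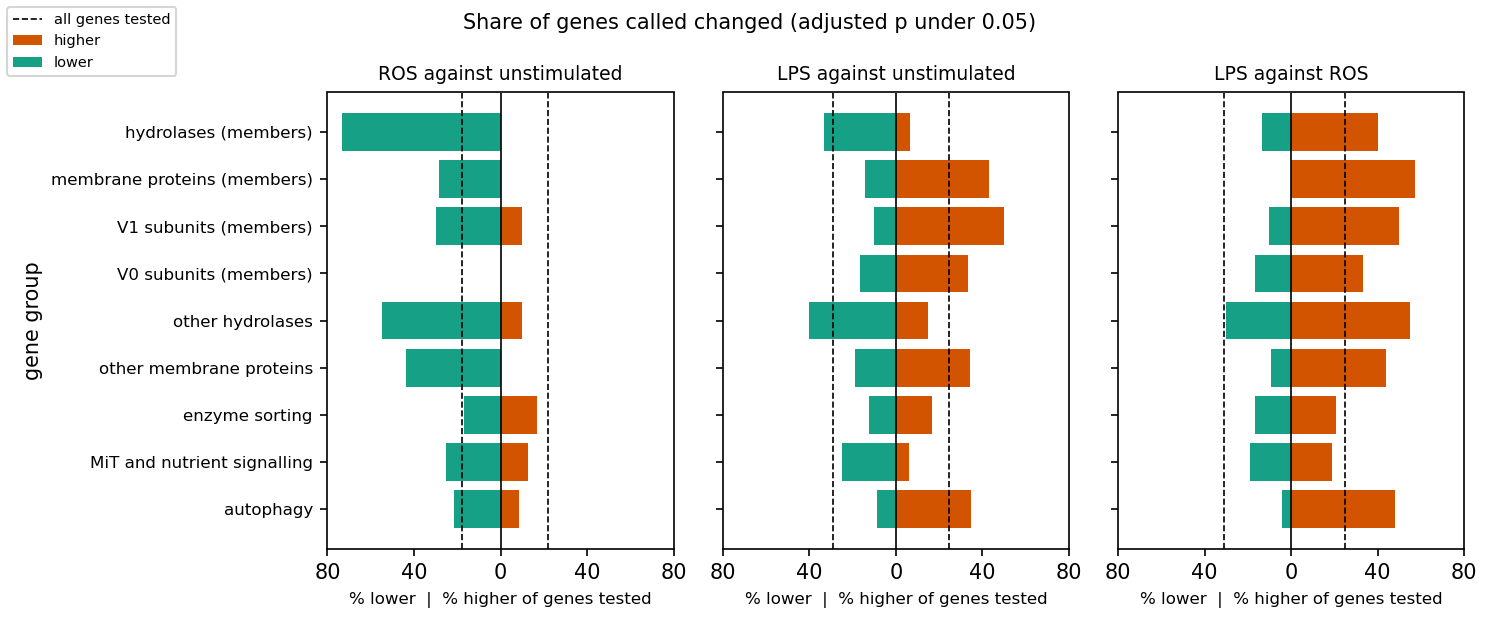
Percent of the tested genes of each group that were called lower (left of 0) or higher (right of 0) in each comparison; dashed lines give the percent over all genes tested. In ROS against unstimulated cells the bar of the hydrolases reaches 73.3% lower, beside 18% over all genes.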

How the data were processed

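RNA of 6 samples in 3 groups of 2 was hybridised to 1-colour Illumina arrays. The deposited signal table holds intensity on a linear scale for 25697 probes, and, per the submitters' processing notes, GenomeStudio 2009.2 was used. A detection p-value accompanies each probe of 5 arrays in the deposited file. The second LPS array has none, and its detection limit, between 160.52 and 160.57, was recovered from the probes that the authors' table lists. That table holds the authors' log2 values of 11220 probes, quantile normalised, and served to choose members and as an alternative. Further steps of the authors are not given in the sources used here.

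Signals were corrected with limma's normexp model (offset 16), quantile normalised and then brought to log2. Kept were the 11622 probes that both arrays of some group detected at p under 0.05. The fit used limma 3.58.1 under R 4.3.3 (lmFit, then eBayes, over all 6 arrays, 1 coefficient per group, no covariates, 3 residual and 3.02 prior degrees of freedom), with Benjamini-Hochberg adjustment over the kept probes. On simulated data the fit recovered none of the smallest changes and a minority of those of the next size. More of its calls were false than the threshold allows, mostly among dim probes. Far fewer probes were changed in that simulation than were called here, so its rates do not carry over to these data. Members that did not pass may still differ. The platform annotation named 10558 probes of the authors' table with 1 gene each and 662 with none; 10551 matched RefSeq (GRCm38.p6). Probe coordinates were not used. Only 2 arrays per group limit the precision.

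Members and gene lists were chosen with earlier results of these data known. Full statistics are given for the 8 largest called members per direction and comparison and for Lamp1, Lamp2, Cd63, Grn and Laptm5, with the other members by their values. From each further list up to 3 of the largest called genes per direction could be named. Alternatives were another background correction and offset, other scalings, the authors' values, other filters, the mean over probes, other eBayes settings, only the compared arrays, a replicate block and leaving out each array.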

Additional observations from a re-analysis of the deposited data

How the results depend on the processing

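Of the alternatives run on the member counts, scaling moved LPS against unstimulated cells most. After median scaling 7 members were higher and 16 lower, with a median of -0.212, and with no scaling 4 and 22, with a median of -0.45; Lamp1 then turned to -0.02. Taking the mean of all kept probes gave a median of 0.163 there. In ROS against unstimulated cells the members called higher numbered 3 with no background correction, 2 with an offset of 50, 3 with the authors' log2 values, 2 at a detection p under 0.01, 2 with the mean of all kept probes and 4 with trend and robust eBayes. The ROS median was -0.176 with no background correction and with the authors' values, -0.401 after median scaling, -0.505 with no scaling, and -0.348 at the stricter detection p and with the mean of probes. In LPS against ROS the median was 0.284 with no background correction, 0.196 after median scaling, 0.0621 with no scaling, 0.292 with the authors' values, and 0.503 at the stricter detection p and with the mean of probes. The cause was not tested. Leaving out each array in turn gave, in ROS cells, 1 to 2 members higher, 9 to 18 lower and a median of -0.348 to -0.206; in LPS cells 9 to 13 higher, 6 to 7 lower and a median of 0.0613 to 0.227; and in LPS against ROS 16 to 20 higher, 3 to 4 lower and a median of 0.367 to 0.556. A lone array left in a group is then assumed to vary like the other groups. Deviations of same-numbered arrays correlated at -0.104, 0.021 and -0.023 across probes. With 2 arrays per group this cannot show whether same-numbered arrays were paired. With the replicate number as a block, 15 members were lower and 1 higher in ROS cells, 13 higher and 7 lower in LPS cells, and 20 higher and 4 lower in LPS against ROS, and the call of Atp6v1b2 in LPS cells was lost. With the numbers of the ROS arrays crossed, a setting chosen after seeing the data, 17 members were lower and 1 higher in ROS cells. The intensities limit the reading of Galns, Atp6v0e2 and Atp6v1c2, which lay 33, 25 and 32 units above background.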
